A study of Mus musculus with 6 samples.

Results

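The cell cycle and DNA replication genes described here are 41 genes, taken by name from the 46078 genes counted in each library. They were divided by role into 14 regulators of the G1 phase, 9 genes of DNA synthesis in S phase and 18 genes of mitosis. Their RNA was counted in 6 bulk libraries of growth plate cartilage (distal femur with proximal tibia), 3 from control and 3 from Idh1 mutant mice. Control mice carried the Idh1 LSL/+ allele, a knock-in of mutant Idh1 behind a lox-stop-lox cassette, without Cre. Mutant mice carried Col2a1-Cre; Idh1 LSL/+, in which Cre driven by the Col2a1 promoter removes the stop in cells that use this promoter, mainly chondrocytes. Both groups were labelled E18.5, although the text on animal care gives an age of 2 months, and both carried the targeted allele, so that the Cre transgene and the expression of mutant Idh1 cannot be told apart. The labels do not say that each library came from a separate animal. The p-values set the genotype difference against variation between these libraries, which may not be variation between animals. Mutant 3 stood apart in the sex-linked genes. It had 26356 Xist counts, against 0 to 13 in the other 5 libraries, and 0 counts of the Y-linked Ddx3y. Values without mutant 3 are given beside some of the counts, the role medians and the members described in full. Other counts, and the values of the wider lists, are given with it only.

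A dividing cell passes from G1 into S phase when cyclin D with Cdk4 or Cdk6, and then cyclin E with Cdk2, phosphorylate the retinoblastoma proteins and release E2F transcription factors. E2F activates the genes of DNA replication, and later the MuvB complex with B-Myb and Foxm1 activates the genes of mitosis. In the growth plate, the flat chondrocytes of the proliferative columns divide, and they leave the cycle as they become prehypertrophic. The lengthening of the bone depends on both steps.

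The timing of these groups in the cycle is set in part by promoter elements, and the sequence around their start sites was searched for them. RefSeq promoters (GRCm38.p6, 300 bases from 250 before the start to 50 after) were available for 32 of the 41 members in 36 windows. In 26 of these windows the bases just after the start were found in an annotated transcript of the gene. They were not found for the others, among them Mki67, Mcm5 and Mcm6. All searches covered both strands. The cell cycle genes homology region (CHR), bound by MuvB, was searched as TTTGAA and, in its other common form, as TTCGAA. The box bound by NF-Y was searched as CCAAT. An E2F site was searched as TTCCCGC. A variant of that site was searched as TTGGCGC. Another variant was searched as TTCGCGC. E2F and CCAAT matches overlapped in 3 cases. A match is a description of letters and not of binding. Promoters are counted here as windows, with 13 for 10 G1 genes, 9 for 8 S phase genes and 14 for 14 mitosis genes. Both windows of Mcm7 held E2F letters.

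CHR letters were found in 11 of 14 mitosis promoters (78.6%), in 2 of 9 S phase promoters (22.2%) and in 0 of 13 G1 promoters, against 19.2% of all promoters of this length. In 10 of these mitosis genes they lay within 25 bases before the start or after it, and the share of all promoters was not taken for this position. For Aurka, Ccnb2, Kif11 and Plk1 among them the distance is less certain. The bases just after their start were not found in an annotated transcript. Birc5, Ccnb1 and Cenpe held none in this window. CCAAT was found in 13 of 14 mitosis promoters (92.9%), 8 of 9 S phase promoters (88.9%) and 4 of 13 G1 promoters (30.8%), against 37.4% of all. E2F letters were found in 5 of 9 S phase promoters (55.6%), 3 of 14 mitosis promoters (21.4%) and 3 of 13 G1 promoters (23.1%), against 8.07% of all. CHR and CCAAT occurred together in 78.6% of mitosis promoters and 7.52% of all promoters.

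**Figure D1:**
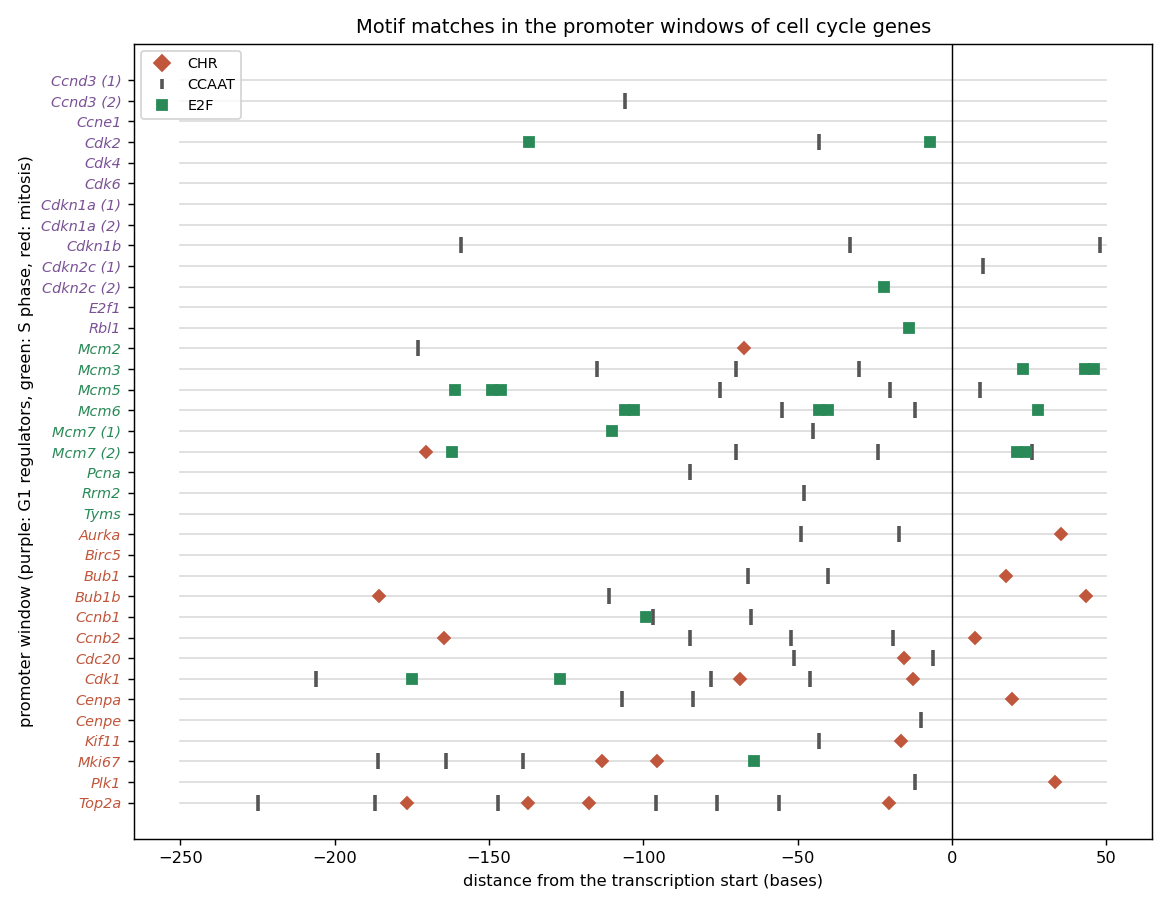
Position of CHR, CCAAT and E2F letters in the promoters of the members, by role, with the distance from the start site in bases on the horizontal axis. CHR marks are found in 11 of 14 mitosis promoter windows and 0 of 13 G1 promoter windows.

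The 200 bases before the start are given for genes of each role, since they show the elements beside each other, with all matches in capitals, on the other strand written as their reverse complement (ATTGG for CCAAT). Each stretch is printed 5′ to 3′ on the strand of the gene. The mitosis genes Cdc20, Cdk1, Top2a and Mki67 hold CHR and CCAAT, and Cdk1 and Mki67 also hold E2F letters.
Cdc20, chr4:118437344-118437543, minus strand: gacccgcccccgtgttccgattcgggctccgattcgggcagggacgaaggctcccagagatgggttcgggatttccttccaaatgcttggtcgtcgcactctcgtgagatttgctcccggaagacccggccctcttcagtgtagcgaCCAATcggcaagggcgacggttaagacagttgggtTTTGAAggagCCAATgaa
Cdk1, chr10:69352913-69353112, minus strand: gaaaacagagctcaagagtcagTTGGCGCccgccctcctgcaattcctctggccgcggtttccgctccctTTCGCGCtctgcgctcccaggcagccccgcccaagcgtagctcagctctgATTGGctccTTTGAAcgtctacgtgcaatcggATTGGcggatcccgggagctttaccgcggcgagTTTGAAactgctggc
Top2a, chr11:99024190-99024389, minus strand: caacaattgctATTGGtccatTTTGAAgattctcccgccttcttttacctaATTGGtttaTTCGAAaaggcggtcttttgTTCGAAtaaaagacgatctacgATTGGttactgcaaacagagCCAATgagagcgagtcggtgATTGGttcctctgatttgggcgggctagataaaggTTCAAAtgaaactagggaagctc
Mki67, chr7:135716380-135716579, minus strand: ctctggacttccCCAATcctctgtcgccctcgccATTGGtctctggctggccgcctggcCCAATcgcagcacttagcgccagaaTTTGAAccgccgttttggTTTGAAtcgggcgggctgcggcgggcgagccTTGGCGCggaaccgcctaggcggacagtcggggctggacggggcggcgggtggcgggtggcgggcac

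The helicase genes Mcm5 and Mcm6 hold CCAAT and E2F letters and no CHR, and Cdk4, a kinase of G1, holds none of the 3 in this stretch.
Mcm5, chr8:75109309-75109508, plus strand: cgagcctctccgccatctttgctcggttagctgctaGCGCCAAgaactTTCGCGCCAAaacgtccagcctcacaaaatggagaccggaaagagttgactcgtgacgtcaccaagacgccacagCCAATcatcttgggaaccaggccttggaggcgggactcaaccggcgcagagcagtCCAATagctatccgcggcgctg
Mcm6, chr1:128359706-128359905, minus strand: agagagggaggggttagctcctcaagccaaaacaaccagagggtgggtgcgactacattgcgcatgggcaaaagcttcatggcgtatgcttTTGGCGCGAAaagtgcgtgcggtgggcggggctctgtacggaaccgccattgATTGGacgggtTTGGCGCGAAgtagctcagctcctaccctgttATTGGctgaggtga
Cdk4, chr10:127063335-127063534, plus strand: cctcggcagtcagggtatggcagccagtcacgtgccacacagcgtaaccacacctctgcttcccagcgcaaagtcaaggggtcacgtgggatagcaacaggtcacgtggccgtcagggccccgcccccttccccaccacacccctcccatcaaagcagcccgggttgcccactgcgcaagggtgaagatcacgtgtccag

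All 41 genes passed the filter on low counts, and none differed between the genotypes beyond the threshold. With an adjusted p under 0.05, 0 of 41 members were called higher and 0 lower, against 0.0535% and 0.137% of the 16813 tested genes (0.19% in both directions, Benjamini-Hochberg over all tested genes, edgeR). DESeq2 and limma-voom also called 0 members. At an unadjusted p under 0.05, 4 members were lower in mutants (Ccne1, Cdk6, Cdkn1b and Bub1), against 4.93% of tested genes, and 0 were higher, against 3.71%. The log2 difference, mutant minus control, was below 0 for 30 of 41 members (73.2%), against 50.7% of all tested genes. In all, 4 of 41 members were past the unadjusted p in either direction, against 8.64% of tested genes, and 11 members lay above 0, against 49.3%. The median difference of the members was -0.07, and that of all tested genes was -0.0026.

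The genes were well counted, and the intervals of most of them were narrow. Library totals were 23445687 to 30415773 counts. The lowest count of a member in a library was 424, and member means lay between 22.0 and 499.7 CPM (read counts relative to library size, scaled by TMM factors). The median SE of the log2 difference was 0.0938 for the members and 0.130 for all tested genes. For 39 of 41 members the 95% interval lay within a 1.5-fold change in both directions, which held for 62.7% of all tested genes. The exceptions were Cdkn1a and Bub1. In bulk tissue, fewer dividing cells and less RNA per cell cannot be told apart.

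**Figure D2:**
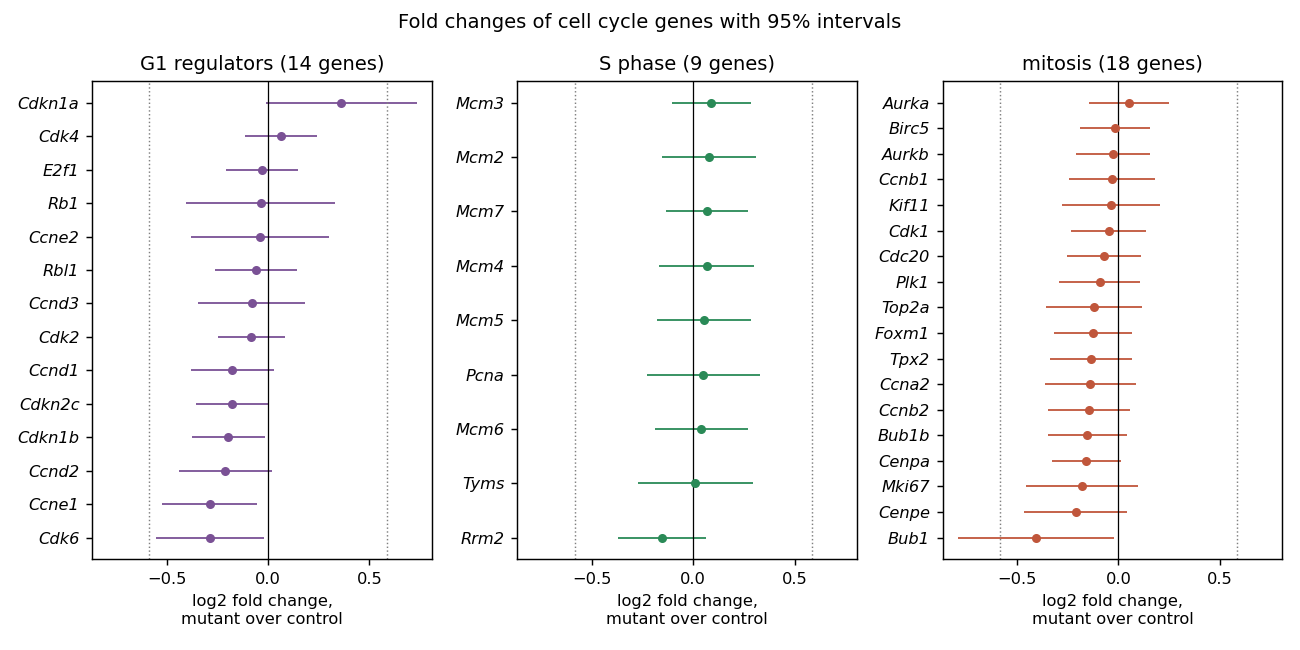
Log2 difference, mutant minus control, for each of the 41 genes (horizontal axis, log2 scale), grouped by role, with points for the estimates and bars for the 95% intervals over 3 libraries per group. Of the 18 mitosis genes 17 lie below 0, and of the 9 S phase genes 8 lie above 0, while most intervals include 0.

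The 14 G1 regulators had a median log2 difference of -0.08, or -0.12 without mutant 3, and 12 of 14 lay below 0. In 4 of them every mutant library was below every control library (Ccnd1, Ccne1, Cdkn1b and Cdkn2c), and in none was the order the opposite. Over the 41 members the groups did not overlap in 5 genes that were lower in mutants (12.2%), against 7.58% of all tested genes, and in 0 that were higher, against 6.85%. The count depended on single libraries. It was 19 (46.3%) without mutant 3, where the same held for 13.1% of all tested genes, and between 5 and 9 when any other library was left out, where it held for 10.7% to 13.3% of all tested genes.

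The D cyclins join growth signals to Cdk4 and Cdk6. Gene positions are given in GRCm38. Ccnd1 (ENSMUSG00000070348, chr7:144929931-144939869), cyclin D1, stood at 150.1, 144 and 151 CPM in controls 1, 2 and 3 and 116, 136 and 143 CPM in mutants 1, 2 and 3. Every mutant library was below every control library, and mutant 1 was the lowest of the 6. The log2 difference was -0.18 ± 0.09 (SE), 95% interval -0.38 to 0.03 (adjusted p = 0.653, edgeR), and -0.24 without mutant 3. Cyclin D2, Ccnd2, differed by -0.21 ± 0.10 (SE) and cyclin D3, Ccnd3, by -0.08 ± 0.12 (SE), and in both the groups overlapped. Per length (RPKM), Ccnd2 was the most abundant D cyclin in every library, with 41.3% to 46.4% of the D cyclin level. Ccnd1 held 28.0% to 31.5% and Ccnd3 22.6% to 29.7%. Ccnd1 was above Ccnd3 except in mutant 1, with 28.0% for Ccnd1 and 29.7% for Ccnd3.

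The D cyclins bind Cdk4 and Cdk6, and the level of Cdk4 was far above that of Cdk6. Cdk4 (ENSMUSG00000006728, chr10:127063534-127067920) had 231, 238 and 219 CPM in controls 1, 2 and 3 and 229, 239 and 250.2 CPM in mutants 1, 2 and 3, and the groups overlapped. On the log2 scale the genotypes differed by 0.06 ± 0.08 (SE), 95% interval -0.11 to 0.24 (adjusted p = 0.890, edgeR), and 0.03 without mutant 3. Cdk6 (ENSMUSG00000040274, chr5:3341485-3531008) had 53.2, 43.9 and 55.1 CPM in controls 1, 2 and 3 and 40.3, 36.7 and 47.6 CPM in mutants 1, 2 and 3. Mutant 2 was lowest and control 3 highest, and mutant 3 lay above control 2. Its log2 difference was -0.29 ± 0.12 (SE), 95% interval -0.55 to -0.02 (adjusted p = 0.539, edgeR), and -0.40 without mutant 3. Per length, Cdk4 made up 94.5% to 96.6% of the sum of both kinases in each library. Exons of Cdk4 overlap those of Tspan31 on the other strand and exons of Cdk6 overlap Gm17590. The counts ignored strand, so that strand does not assign reads in the shared bases to either gene.

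Cyclin E activates Cdk2 at the start of S phase. Ccne1 (ENSMUSG00000002068, chr7:38097984-38107534), cyclin E1, had the lowest p of all members, with 26.8, 28.0 and 32.4 CPM in controls 1, 2 and 3 and 22.2, 23.2 and 26.0 CPM in mutants 1, 2 and 3. No mutant library reached the lowest control, although mutant 3 lay close to control 1. The log2 difference was -0.29 ± 0.11 (SE), 95% interval -0.52 to -0.05 (adjusted p = 0.473, edgeR), and -0.36 without mutant 3. Cyclin E2, Ccne2, differed by -0.04 ± 0.15 (SE), with control 3 the lowest library and control 1 the highest. Ccne1 held 56.9% to 70.5% of the summed RPKM of both cyclins E. Cdk2 itself differed by -0.08 ± 0.07 (SE).

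The estimates for the inhibitors of the cyclin-dependent kinases lay on both sides of 0, and none passed the threshold. Cdkn1a (ENSMUSG00000023067, chr17:29090979-29100722), p21, a p53 target that inhibits Cdk2, had 110.3, 100.3 and 136 CPM in controls 1, 2 and 3 and 178, 155 and 112 CPM in mutants 1, 2 and 3. Mutants 1 and 2 were above every control, and mutant 3 was below control 3. On the log2 scale the genotypes differed by 0.36 ± 0.17 (SE), the highest of the 41 members, 95% interval -0.01 to 0.73 (adjusted p = 0.598, edgeR), and 0.53 without mutant 3. The Cdkn1a estimate depended on single libraries. It lay between 0.21 (without mutant 1) and 0.53 when each library was left out in turn, with an unadjusted p under 0.05 only without control 3 and without mutant 3. Cdkn1b (ENSMUSG00000003031, chr6:134920401-134925513), p27, which also binds Cdk2, had 58.0, 58.5 and 59.9 CPM in controls 1, 2 and 3 and 46.9, 54.4 and 52.7 CPM in mutants 1, 2 and 3. The controls lay close to each other and the mutants were all lower, with a log2 difference of -0.20 ± 0.08 (SE), 95% interval -0.38 to -0.01 (adjusted p = 0.540, edgeR), and -0.21 without mutant 3. Cdkn2c (ENSMUSG00000028551, chr4:109660876-109667189), p18, an inhibitor of Cdk4 and Cdk6, had 51.9, 53.1 and 53.1 CPM in controls 1, 2 and 3 and 43.0, 48.0 and 48.9 CPM in mutants 1, 2 and 3. All mutants were below all controls, and the log2 difference was -0.18 ± 0.08 (SE), 95% interval -0.35 to 0.0017 (adjusted p = 0.584, edgeR), and -0.21 without mutant 3. The retinoblastoma family and its partner showed small differences, with -0.04 ± 0.16 (SE) for Rb1, -0.06 ± 0.09 (SE) for Rbl1 (p107) and -0.03 ± 0.08 (SE) for E2f1.

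Of the 9 S phase genes 8 had a log2 difference above 0, with a median of 0.05, and in none of them were the groups separate. All 9 intervals lay within a 1.5-fold change in both directions. The sign was not stable, since the median was -0.02 without mutant 3 and lay between -0.02 and 0.14 when each library was left out in turn. Mcm2 to Mcm7 are the subunits of the helicase that opens DNA at replication origins, and their differences ranged from 0.04 (Mcm6) to 0.09 (Mcm3). Mcm3 (ENSMUSG00000041859, chr1:20802968-20820312) had 97.7, 89.8 and 96.9 CPM in controls 1, 2 and 3 and 92.6, 99.9 and 110.1 CPM in mutants 1, 2 and 3. The highest value was in mutant 3 and the lowest in control 2, with a log2 difference of 0.09 ± 0.09 (SE), 95% interval -0.10 to 0.28 (adjusted p = 0.844, edgeR), and 0.02 without mutant 3. Mcm7 exons overlap those of Ap4m1, Cops6 and the microRNA genes Mir25 and Mir93.

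The other S phase genes supply nucleotides and hold the polymerase on DNA. Rrm2 (ENSMUSG00000020649, chr12:24708241-24714146), a subunit of ribonucleotide reductase, was the exception to the sign, with 79.4, 69.0 and 68.9 CPM in controls 1, 2 and 3 and 57.7, 70.1 and 67.3 CPM in mutants 1, 2 and 3. Control 1 was highest and mutant 1 lowest, while mutant 2 lay above controls 2 and 3. Its log2 difference was -0.15 ± 0.10 (SE), 95% interval -0.37 to 0.06 (adjusted p = 0.731, edgeR), and -0.18 without mutant 3. Pcna (ENSMUSG00000027342, chr2:132249162-132253314), the sliding clamp of the polymerase, had 99.0, 85.2 and 76.6 CPM in controls 1, 2 and 3 and 76.8, 90.1 and 103 CPM in mutants 1, 2 and 3, and Tyms (ENSMUSG00000025747, chr5:30058202-30073617), thymidylate synthase, had 48.5, 39.7 and 38.1 CPM in controls 1, 2 and 3 and 35.9, 43.4 and 47.9 CPM in mutants 1, 2 and 3. In both genes control 1 and mutant 3 were the highest pair, and the log2 differences were 0.05 ± 0.12 (SE) and 0.01 ± 0.13 (SE), or -0.06 and -0.09 without mutant 3.

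Of the 18 mitosis genes 17 lay below 0 (94.4%), with a median log2 difference of -0.12, and Aurka, the centrosomal kinase, was the exception at 0.05 ± 0.09 (SE). In 1 of 18 (5.56%), Cenpa, every mutant library lay below every control library, against 7.58% of all tested genes. Mutant 1 was the lowest of the 6 libraries in 18 of 18 mitosis genes, and in 29 of 41 members, against 16.6% of all tested genes. The median was between -0.19 (without mutant 3) and -0.05 (without mutant 1) when each library was left out in turn. Without mutant 1, 0 members had an unadjusted p under 0.05 in the lower direction, against 4.26% of all tested genes, and 5 (12.2%) were higher in every remaining mutant library than in every control, against 12.5%. Without mutant 3, 8 members had such a p in the lower direction, against 4.35% of all tested genes.

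Mki67 (ENSMUSG00000031004, chr7:135689788-135716379), the proliferation marker Ki-67, had 479.8, 415 and 447 CPM in controls 1, 2 and 3 and 334, 390.4 and 463 CPM in mutants 1, 2 and 3. Mutant 1 was lowest, and mutant 3 lay above controls 2 and 3. The log2 difference was -0.18 ± 0.12 (SE), 95% interval -0.45 to 0.10 (adjusted p = 0.764, edgeR), and -0.31 without mutant 3 and -0.07 without mutant 1. Top2a (ENSMUSG00000020914, chr11:98992943-99024189), the topoisomerase that untangles chromosomes, had 335, 309 and 288 CPM in controls 1, 2 and 3 and 255, 282 and 321 CPM in mutants 1, 2 and 3. The groups overlapped, with a log2 difference of -0.12 ± 0.11 (SE), 95% interval -0.36 to 0.12, and -0.21 without mutant 3.

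Bub1 (ENSMUSG00000027379, chr2:127801122-127831865), a kinase of the spindle checkpoint, had the lowest estimate of all members, with 35.76, 27.77 and 22.63 CPM in controls 1, 2 and 3 and 17.95, 21.95 and 24.99 CPM in mutants 1, 2 and 3. Control 1 stood highest, control 3 lay below mutant 3, and mutant 1 was lowest. On the log2 scale the genotypes differed by -0.41 ± 0.17 (SE), 95% interval -0.79 to -0.02 (adjusted p = 0.546, edgeR), and -0.53 without mutant 3. The Bub1 estimate lay between -0.55 (without control 3) and -0.22 (without control 1) when each library was left out in turn, and its unadjusted p was above 0.05 without control 1, control 2, mutant 1 or mutant 2. Cenpa (ENSMUSG00000029177, chr5:30666777-30674830), the histone that marks centromeres, had 62.7, 64.4 and 62.8 CPM in controls 1, 2 and 3 and 53.1, 57.3 and 59.8 CPM in mutants 1, 2 and 3. The controls lay close to each other and every mutant was lower, with a log2 difference of -0.16 ± 0.08 (SE), 95% interval -0.33 to 0.01 (adjusted p = 0.626, edgeR), and -0.20 without mutant 3. The checkpoint kinase Bub1b differed by -0.15 ± 0.09 (SE) and the kinetochore motor Cenpe by -0.21 ± 0.11 (SE).

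The remaining mitosis genes had small estimates below 0. For the cyclins that drive entry to mitosis, the log2 difference was -0.14 ± 0.10 (SE) for Ccna2, -0.03 ± 0.09 (SE) for Ccnb1 and -0.14 ± 0.09 (SE) for Ccnb2. Their kinase Cdk1 differed by -0.05 ± 0.08 (SE), the mitotic kinases Plk1 and Aurkb by -0.09 ± 0.09 (SE) and -0.03 ± 0.08 (SE), and Cdc20, an activator of the anaphase-promoting complex, by -0.07 ± 0.08 (SE). Foxm1, the transcription factor of this group, differed by -0.13 ± 0.09 (SE), the spindle genes Tpx2 and Kif11 by -0.13 ± 0.09 (SE) and -0.04 ± 0.11 (SE), and Birc5 (survivin) by -0.02 ± 0.08 (SE). None of them had an unadjusted p under 0.05.

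**Figure D3:**
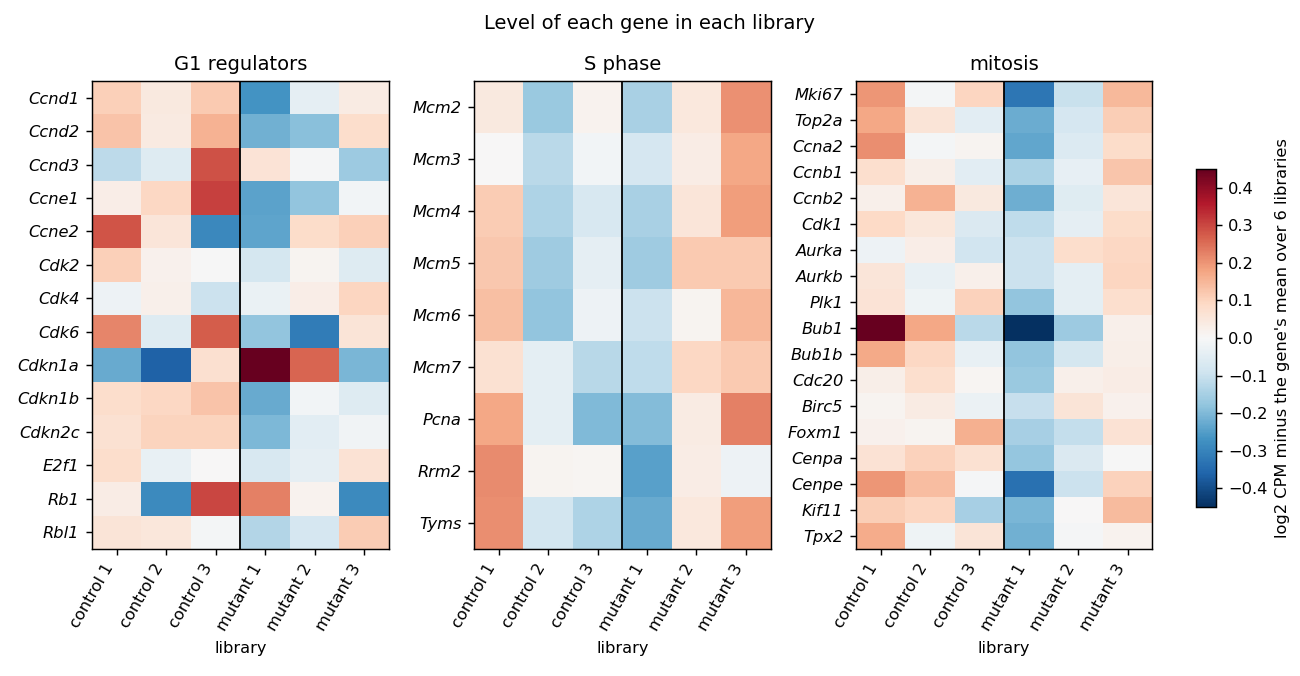
Level of each of the 41 genes (rows, by role) in each of the 6 libraries (columns) as log2 CPM relative to the gene's mean over the libraries, with blue for below and red for above. The column of mutant 1 is the lowest of the 6 in all 18 mitosis rows, and mutant 3 and control 1 have the highest S phase means.

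The libraries of a group differed in how much of the cell cycle they showed. The mean log2 CPM of the mitosis genes, relative to the mean over 6 libraries, was 0.12, 0.05 and -0.00015 in controls 1, 2 and 3 and -0.20, -0.04 and 0.07 in mutants 1, 2 and 3. Mutant 3 exceeded controls 2 and 3. For the S phase genes the values were 0.12, -0.10 and -0.06 in controls and -0.16, 0.05 and 0.15 in mutants, so that mutant 1 was lowest and mutant 3 highest. The G1 regulators spanned less, with 0.06, -0.02 and 0.10 in controls and -0.08, -0.04 and -0.02 in mutants.

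Taken within a library, the mitosis mean minus the S phase mean does not depend on the scaling of the library. This measure was chosen after the values were seen and was given no test. It was -0.000295, 0.157 and 0.0644 in controls 1, 2 and 3 and -0.0450, -0.0977 and -0.0780 in mutants 1, 2 and 3, and the groups did not overlap. The means were 0.0736 ± 0.0789 and -0.0736 ± 0.0267 (SD, n = 3), a difference of -0.15 on the log2 scale. With medians over genes in place of means, the groups overlapped (-0.0405 in control 1 and -0.0303 in mutant 1) and the difference was -0.13. Leaving out each library in turn gave differences of the means between -0.18 and -0.11, with -0.14 without mutant 3.

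**Figure D4:**
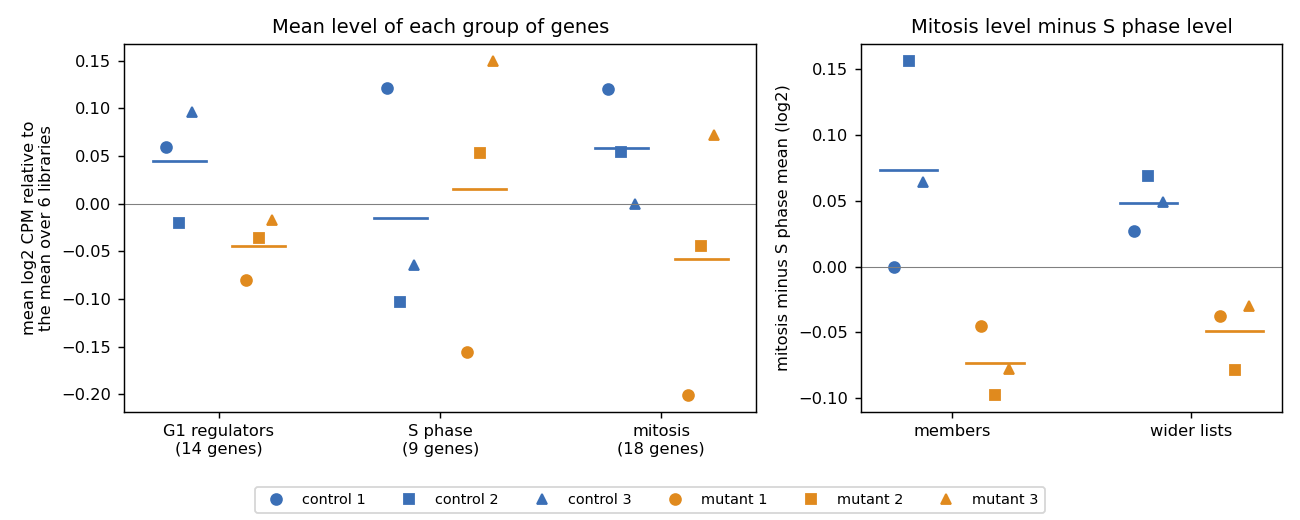
Left, mean log2 CPM of the G1, S phase and mitosis genes in each library relative to the mean over 6 libraries. Right, mitosis mean minus S phase mean in each library, for the members (18 and 9 genes) and for the wider mitosis and replication lists. A symbol marks each library and a line the group mean, and the 3 mutants lie below the 3 controls in both.

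The dissected pieces held markers of other tissues, and some of these differed between libraries or genotypes. The cartilage markers were at a summed 5505 to 10139 CPM. The 7 bone markers summed to 56738.5, 55619.4 and 75033.8 CPM in controls 1, 2 and 3. In mutants 1, 2 and 3 they summed to 60531.8, 63176.8 and 60986.8 CPM. This was the highest sum of the marker lists in every library. Col1a1 had means of 38093 CPM in controls and 38371 CPM in mutants, against 3144 and 4287 CPM for Col2a1. Which cells the cell cycle RNA came from was not tested. The 9 muscle marker genes were at 16597, 18222 and 24550 CPM in controls 1, 2 and 3. In mutants 1, 2 and 3 these muscle genes were at 22854, 21729 and 15759 CPM. Control 1 and mutant 3 had the lowest muscle sums and the highest S phase and mitosis means. Mutant 1, with the lowest S phase and mitosis means, had the highest cartilage sum, and control 3 had the lowest cartilage sum. Prehypertrophic and hypertrophic markers summed to between 474 CPM (control 3) and 954 CPM (mutant 2). Control 3 had the highest muscle sum but not the lowest mitosis mean, and 0 of 9 muscle markers were called. Tendon markers summed to 2989, 3152 and 3285 CPM in controls and 2258, 2002 and 2339 CPM in mutants. In 4 of 5 of them the mutants lay below every control, against 7.58% of all tested genes. Of the 5, 1 was called lower in mutants, Tnmd (adjusted p = 0.0374, Benjamini-Hochberg over all tested genes, edgeR), against 0.137% of all tested genes. Erythroid markers summed to 552, 1591 and 645 CPM in controls and 291, 432 and 331 CPM in mutants, with no overlap. Of 10 erythroid markers 0 were called, and 7 were lower at an unadjusted p under 0.05, against 4.93% of all tested genes. Of 6 keratinocyte markers, which summed to 9.33 to 20.3 CPM, 4 were tested. Of these, 1 was called lower, against 0.137% of all tested genes. It was Krt5, with a log2 difference of -4.46 (adjusted p = 0.0355, Benjamini-Hochberg over all tested genes, edgeR). At an unadjusted p under 0.05, 3 of 9 tested myeloid and osteoclast markers (Ptprc, Csf1r and Lyz2), 2 of 5 endothelial markers (Kdr and Emcn) and 2 of 7 bone markers (Ibsp at 1.32 and Dmp1 at 1.75 on the log2 scale) were higher in mutants. The share over all tested genes was 3.71%, and 0 genes of these lists were called. Of the osteoclast genes, Ctsk (-0.36 ± 0.17, SE) and Ocstamp (-0.11 ± 0.68, SE) lay below 0 and Acp5 (0.53 ± 0.55, SE) above. None of the muscle, tendon or erythroid markers was at 0 counts in a library. The part of these differences in the cell cycle values was not tested.

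Wider lists of the same pathway were called no more often. Of 34 further G1 genes 33 were tested, of 59 replication genes 59 and of 75 mitosis genes 75, and 0 of each passed an adjusted p of 0.05. Their median log2 differences were -0.02, 0.00 and -0.12. At an unadjusted p under 0.05, 10 mitosis genes were lower and 0 were higher, 3 G1 genes were lower and 1 was higher, and 1 replication gene lay on each side, against 4.93% lower and 3.71% higher among all tested genes. In the mitosis list 61 of 75 were below 0 (81.3%), and in 16 the mutants lay below every control (21.3%), against 7.58% of all tested genes. Mutant 1 was the lowest library in 51 of these 75 genes, against 16.6% of all tested genes. In the replication list 30 were above 0 and 29 below, and in 2 (3.39%) the mutants lay below every control. There mutant 1 was lowest in 29 of 59 genes. For the wider lists, the counts below 0 and of groups not overlapping were not taken with a library left out. Within a library, mitosis minus replication over these lists was 0.0273, 0.0693 and 0.0494 in controls and -0.0376, -0.0784 and -0.0300 in mutants, with no overlap.

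Named by rule from the wider lists, genes with the lowest p in the higher direction included Cdkn2b, Mdm2 and Ccng1 among the G1 genes, Prim2 and Rfc5 among the replication genes, and Hjurp, Iqgap3 and Troap among the mitosis genes. Cdkn2b, p15, an inhibitor of Cdk4 and Cdk6, had 14, 7 and 3 counts in controls and 26, 29 and 16 in mutants. Its level was 0.497, 0.228 and 0.108 CPM in controls and 1.10, 1.18 and 0.551 CPM in mutants, where the floor of 3 counts is 0.0978 to 0.127 CPM. The log2 difference was 1.74 ± 0.53 (SE), adjusted p = 0.377 (Benjamini-Hochberg over all tested genes, edgeR). Prim2, the large primase subunit, differed by 0.33 and Hjurp, the chaperone of Cenpa, by 0.52, with 317.5, 212.1 and 116.4 CPM in controls and 303.6, 312.3 and 311.4 CPM in mutants. Control 1 was the highest library for Hjurp, and the groups overlapped.

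In the lower direction the genes named were E2f2 (-0.31), Cdkn2d (-0.27) and Skp2 (-0.17) among the G1 genes, Dctpp1 (-0.31), Pold3 (-0.18) and Asf1b (-0.14) among the replication genes, and Cdc25b (-0.24), Cenpm (-0.36) and Kif18b (-0.26) among the mitosis genes. Cdc25b, the phosphatase that activates Cdk1, had the lowest p of these (adjusted p = 0.436, Benjamini-Hochberg over all tested genes, edgeR). Cdkn1c, p57, an inhibitor expressed in chondrocytes that leave the cycle, stood at 1516, 1775 and 1808 CPM in controls 1, 2 and 3 and 1649, 1457 and 1420 CPM in mutants 1, 2 and 3. The groups overlapped, with a log2 difference of -0.17 (adjusted p = 0.753, Benjamini-Hochberg over all tested genes, edgeR).

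Compared between genes only per length, the members spanned a 21.9-fold range of mean RPKM. The highest were Cdk4 at 72.2, Cdkn1a at 59.3, Ccnd2 at 53.1, Mki67 at 41.8, Pcna at 36.8, Ccnd1 at 36.5 and Top2a at 33.1 RPKM. The means of Pcna and Ccnd1 differed by less than the SD of either gene. The lowest were Bub1 at 5.78, Rbl1 at 5.27, Rb1 at 4.60 and Cdk6 at 3.30 RPKM. Exons of 15 members, among them Ccnd1, Ccnd2, Ccnd3, Cdkn1a, Rb1, Plk1 and Cdc20, overlap exons of another gene. Whether reads in the shared bases were counted for the member or left out was not checked. The levels of these members are uncertain for this reason.

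**Figure D5:**
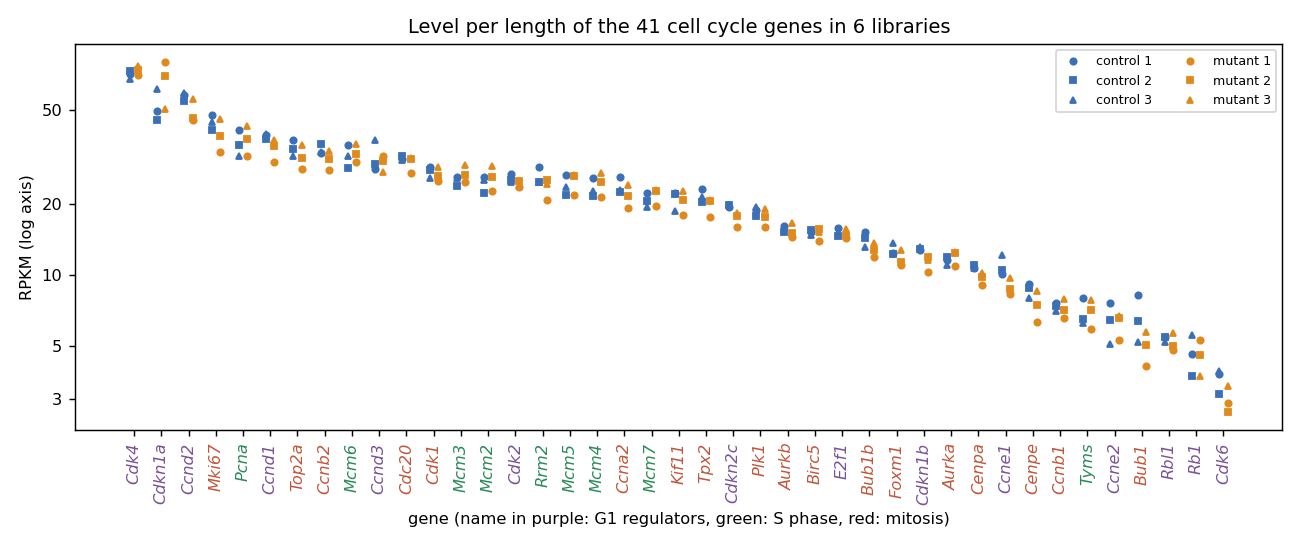
RPKM of the 41 genes on a log axis, in order of the mean over 6 libraries, with a symbol for each library. Cdk4 is highest at a mean of 72.2 RPKM and Cdk6 lowest at 3.30 RPKM, and neighbours in the order often overlap across libraries.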

How the data were processed

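Growth plate cartilage RNA was sequenced in 6 libraries, 3 control and 3 mutant, grouped by the genotype in the labels. The members and gene lists were chosen with earlier results of these data known. The authors trimmed reads with Trim Galore 0.6.4, mapped them to GRCm38 with STAR 2.6.1d and counted them per gene with featureCounts 1.6.4, without regard to strand although the library kit was stranded. The deposited values are raw counts per gene, without normalization. Library totals were 23445687 to 30415773 counts. The SE was derived from the log2 difference and the F statistic of the edgeR test, and the intervals from this SE. They rest on variation between libraries, estimated in part across genes.

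From these counts, edgeR 4.0.16 in R 4.3.3 was run with filterByExpr (minimum count 10, minimum total 15), TMM factors and the quasi-likelihood test over 16813 genes, with genotype as the only term and Benjamini-Hochberg adjustment (threshold 0.05). CPM and RPKM, per kilobase of the exon length in the count files, used the TMM factors. The authors fitted litter and genotype, and the labels used here give no litter. Values are given for members whose groups do not overlap, the 2 members of each role with the lowest p, the highest and lowest of each role in RPKM and 5 fixed genes; from the wider lists, for the 3 with the lowest p in each direction and Cdkn1c. Alternatives were DESeq2 1.42.0, limma-voom (limma 3.58.1), the replicate number as a block, relative log expression and upper-quartile factors, no filter, at least 10 counts in every library, and each library left out. The functions were tested on simulated data. Overlaps came from GENCODE annotation of the same build, and promoter letters from RefSeq with Python 3.11.15. Figures were drawn with matplotlib 3.10.9. Aurkb, Ccna2, Ccnd1, Ccnd2, Ccne2, Foxm1, Mcm4, Rb1 and Tpx2 had no promoter window. Some single-gene values are not reported here. The single-cell data were not used here.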

Additional observations from a re-analysis of the deposited data

How the results depend on the processing

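The number of members called was 0 in every setting run, and none of the 41 members changed sign or side of the threshold under another tool, scaling or filter. Over all tested genes 32 were called, against 3 with the replicate number as a block, 193 with DESeq2, 96 with DESeq2 and the replicate block, 19 with limma-voom, 259 without the filter on low counts, and 3 to 17 when each library was left out. Members lower at an unadjusted p under 0.05 numbered 4, against 1 to 6 over the other tools, blocks, scalings and filters. Among these were 2 with the replicate block and 1 with DESeq2 and the block. With a library left out the count was 0 to 8 (0 without mutant 1, 8 without mutant 3). Members higher at that p numbered 0, against 1 with DESeq2, 1 with upper-quartile factors, 1 without the filter and 0 to 1 with a library left out. The replicate numbers were not taken as a pairing, since the deviations of same-numbered libraries from their group means had correlations of -0.16, -0.0068 and -0.15, and no library correlated best with its own number.

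Over the libraries left out in turn, the role medians ranged from -0.15 to -0.10 (G1 regulators), from -0.02 to 0.14 (S phase) and from -0.19 to -0.05 (mitosis). The counts of members whose groups did not overlap ranged from 5 to 19 in the lower and from 0 to 5 in the higher direction. The log2 difference crossed 0 for 14 members: Ccnd3 (-0.16 to 0.057), Ccne2 (-0.18 to 0.10), E2f1 (-0.072 to 0.0016), Rb1 (-0.17 to 0.12), Mcm2 (-0.015 to 0.16), Mcm4 (-0.015 to 0.15), Mcm5 (-0.0085 to 0.14), Mcm6 (-0.031 to 0.12), Pcna (-0.059 to 0.15), Tyms (-0.086 to 0.12), Ccnb1 (-0.11 to 0.028), Aurkb (-0.085 to 0.015), Birc5 (-0.044 to 0.031) and Kif11 (-0.12 to 0.050). The cause was not tested. With 3 libraries per group, true differences anywhere within the 95% intervals remain possible. The intervals are not the limit for a call. That of Ccne1 (-0.52 to -0.05) left out 0, and its adjusted p was 0.473 (Benjamini-Hochberg over all tested genes, edgeR).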
